A study of Rattus norvegicus with 63 samples.

Results

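The 6 genes of the presynaptic release and endosomal fusion machinery described here, Syn1, Syp, Rab3a, Stx1a, Stx7 and Snap25, were measured on 63 arrays of rat brain. They were chosen by name, and the probe sets taken were those whose only gene symbol in the platform annotation is 1 of these 6. This gave 9 of the 1263 non-control probe sets of the array, for 6 of the 720 genes it names. Snap25 had 4 probe sets and the other genes 1 each. The 4 Snap25 probe sets are called set A (AB003991_at), set B (AB003991_g_at), set C (AB003992_s_at) and set D (U56261_s_at). Sets B, C and D and the only Stx1a probe set carry a suffix that marks possible cross-hybridisation with related transcripts.

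Neurotransmitter is packed into synaptic vesicles, which are held in a reserve pool, brought to the presynaptic membrane and fused with it when calcium enters. Synapsin I (Syn1) ties vesicles of the reserve pool together and to actin, synaptophysin (Syp) is an abundant protein of the vesicle membrane, and the small GTPase Rab3a guides vesicles to release sites. Fusion is driven by SNARE proteins: syntaxin 1A (Stx1a) and SNAP-25 (Snap25) of the plasma membrane pair with a vesicle SNARE, and the clostridial neurotoxins block release by cutting such proteins. Syntaxin 7 (Stx7) is the relative that acts in fusion of late endosomes and lysosomes, so it stands apart from the other members in its place in the cell.

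Rats could self-administer cocaine intravenously (0.25 mg an injection) for 0, 1 or 6 h a day, which are the no access, short access and long access groups of 8 rats each in the labels. Nothing states whether RNA of several rats went onto 1 array, so each p is set against the spread between arrays, which may be technical. Each access group had 4 arrays in the lateral hypothalamus, the nucleus accumbens and the amygdala, and 3 in the septum, the ventral tegmental area (VTA) and the medial prefrontal cortex. All groups were dissected tissue, in which fewer cells of a type and less RNA per cell cannot be told apart.

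The values are MAS5 signals, brought to a trimmed mean of 500 on every array, and differences are between means of log2 signal with their SE. A probe set was called where limma gave a Benjamini-Hochberg adjusted p under 0.05 over all probe sets tested in that contrast. All 9 probe sets passed the filter on low signal in every region, and none of their values lay at the floor of 32. All markers set for a region and tested were higher there than in the other regions' mean, 4 for the VTA, 5 for the nucleus accumbens, 3 for the lateral hypothalamus and 2 each for the medial prefrontal cortex and the amygdala. No marker list was set for the septum. The lists were chosen with earlier results of these data known, so these counts are no independent check of the dissection. Some markers were also higher in another region than in the mean of the rest. This held for the amygdala marker Nptxr in the medial prefrontal cortex. It also held for the hypothalamic markers Oxt and Avp in the amygdala, where the summed hypothalamic markers varied widely between arrays with no and with short access. In the lateral hypothalamus the 4 arrays with no access stand apart in control probe sets. Antisense controls averaged 6.75 ± 0.15 with long access and 8.13 ± 0.21 with no access (log2 signal, SD, n = 4 each, exact p = 0.0286, two-sided permutation of the arrays, which is the lowest value possible with 4 a group, and 0.0857 adjusted over 12 comparisons). Bacterial spike-in controls averaged 11.39 ± 0.12 with long access and 12.05 ± 0.14 with no access, with the same exact p.

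Syn1, Syp and Rab3a rose with long access in the lateral hypothalamus, and the DNA before their starts is shown because these were the 3 members called between long and no access there. The sequences are the 250 bases before the start of each gene in the RefSeq table of build GRCr8, written 5′ to 3′ on the gene's own strand. Syn1 lies on the plus strand with its stretch at chrX:3725495-3725744. Syp lies on the minus strand with its stretch at chrX:17536450-17536699. Rab3a lies on the minus strand with its stretch at chr16:18722274-18722523. Capitals mark matches, on either strand, to the cyclic AMP response element TGACGTCA, to its half-site CGTCA (which also lies inside the full element) and to the GC box GGGCGG.
Syn1: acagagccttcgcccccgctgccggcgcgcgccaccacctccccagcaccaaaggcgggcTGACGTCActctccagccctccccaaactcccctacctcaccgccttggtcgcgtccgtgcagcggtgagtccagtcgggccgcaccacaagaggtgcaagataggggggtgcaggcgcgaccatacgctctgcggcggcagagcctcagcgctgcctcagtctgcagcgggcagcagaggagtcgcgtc
Syp: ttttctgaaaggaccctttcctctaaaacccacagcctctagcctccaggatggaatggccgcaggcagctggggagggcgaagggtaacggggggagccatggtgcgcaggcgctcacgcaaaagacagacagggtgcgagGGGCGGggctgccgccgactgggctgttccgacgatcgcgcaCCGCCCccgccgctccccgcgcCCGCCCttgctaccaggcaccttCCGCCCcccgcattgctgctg
Rab3a: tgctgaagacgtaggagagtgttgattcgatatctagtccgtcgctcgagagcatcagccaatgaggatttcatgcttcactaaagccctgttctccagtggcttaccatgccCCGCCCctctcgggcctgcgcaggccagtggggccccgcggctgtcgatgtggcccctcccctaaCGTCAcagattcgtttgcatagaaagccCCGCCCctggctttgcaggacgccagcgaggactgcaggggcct

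The Syn1 stretch held 1 full element, which starts 190 bases before the gene's start and which was found in 1.59% of the 33469 stretches of that length in the table. It held no GC box. The Syp stretch held 4 GC boxes and no match to the element or its half-site. The Rab3a stretch held 2 GC boxes and 1 half-site outside a full element. A GC box was present in 30.5% and a half-site in 18.2% of all stretches. Of the members not called there, Stx1a had 4 GC boxes and Stx7 had 1 in the stretch listed for it, with no element or half-site in either. Both stretches lie partly inside the gene's own span, so their boxes are not all before the gene. That of Stx1a is chr12:27306472-27306721, and the gene's span ends at 27306547. That of Stx7 is chr1:23056466-23056715, and the gene's span ends at 23056579. For Snap25 no stretch was available. The match of letters is a description of the sequence and was not tied to any value on the arrays.

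Long access was first set against no access in the lateral hypothalamus. There Syn1, Syp and Rab3a rose, whereas the SNARE genes Stx1a, Stx7 and Snap25 were not called. This made 3 of 9 probe sets called, all higher, beside 213 of all 718 probe sets tested there (29.7%, 96 of them higher). The share among the members is close to that among all probe sets, so the count by itself is no result about the members. The median difference was 0.27 over the 9 members and -0.03 over all 718.

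Syn1 had signals of 864, 879, 799 and 1208 with no access, 1612, 1649, 1478 and 1517 with short access, and 2036, 1898, 2003 and 1739.8 with long access. The 3 groups did not overlap, and both cocaine groups lay above every no access array. With long access Syn1 was 2.07-fold higher than with no access (log2 difference 1.05 ± 0.11, adjusted p = 1.06e-05, limma). With short access it was 1.69-fold higher than with no access (0.76 ± 0.11, adjusted p = 2.63e-04, limma), the only call among the 9 members in that comparison, where 22.4% of all probe sets were called. Long access exceeded short access by 0.29 ± 0.11, which was not called (adjusted p = 0.124, limma), and 8.91% of all probe sets were called in that comparison. The comparisons of long and of short access with no access share their no access arrays.

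Rab3a had signals of 2154, 1445, 2298 and 2292 with no access, 2401, 2368, 2610.1 and 2444 with short access, and 3469, 3911, 3476 and 3982 with long access. Long access stood clear of both other groups, and the short access arrays lay just above the highest no access array. Rab3a was 1.84-fold higher with long than with no access (0.88 ± 0.12, adjusted p = 1.13e-04, limma) and 1.51-fold higher with long than with short access (0.59 ± 0.12, adjusted p = 0.0108, limma), the second of which was not called in 1 fit of all 63 arrays. Between short and no access the difference was 0.29 ± 0.12 and was not called (adjusted p = 0.111, limma).

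Syp was measured with the least spread of the members in this region, at 3317, 3342, 3323 and 3313 with no access, 2952, 3122, 2996 and 3016 with short access and 4024, 4325, 4234 and 4452 with long access. The groups did not overlap, but here short access was the lowest. Syp was 1.28-fold higher with long than with no access (0.36 ± 0.06, adjusted p = 3.10e-04, limma) and 1.41-fold higher with long than with short access (0.49 ± 0.06, adjusted p = 1.94e-04, limma). The difference of -0.14 ± 0.06 between short and no access was not called (adjusted p = 0.0962, limma). Syn1 and Syp thus differ in the order of the groups: both cocaine groups were above no access for Syn1, and for Syp the long access group alone.

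With the spike-in level of each array as a covariate, the difference of Syp between long and no access was 0.36 and was no longer called (adjusted p = 0.0703, limma), while Syn1 (0.99, adjusted p = 0.0169, limma) and Rab3a (0.92, adjusted p = 0.0399, limma) kept their calls. The part of the control signals in these results was not tested further.

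**Figure D1:**
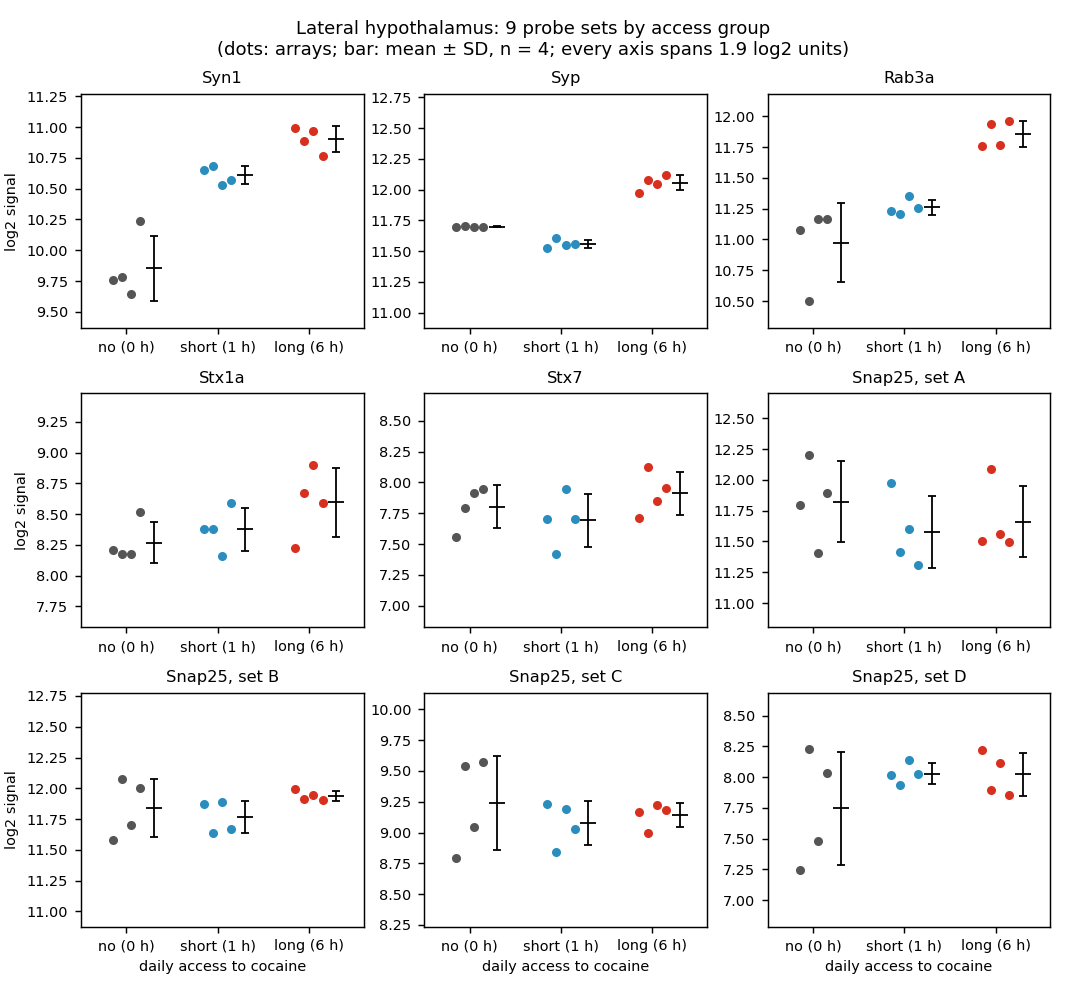
Log2 signal of the 9 probe sets on the 12 lateral hypothalamus arrays, by daily access to cocaine, with dots for arrays and bars for the mean ± SD (n = 4). Syn1 lies higher in both cocaine groups, Rab3a and Syp in the long access group, and the groups overlap for Stx1a, Stx7 and Snap25 sets A, C and D.

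The plasma membrane SNARE genes gave no call in this region. Stx1a had 295, 289.7, 289.6 and 366 with no access, 332, 334, 286 and 385 with short access and 300.0, 407, 478 and 385 with long access, and its groups overlapped. Its difference between long and no access was 0.33 ± 0.15 (95% interval 0.01 to 0.65, adjusted p = 0.113, limma). Stx7, the endosomal member, differed by 0.11 ± 0.15 (95% interval -0.21 to 0.43, adjusted p = 0.637, limma).

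For Snap25 the differences between long and no access were -0.16 ± 0.18 in set A, 0.10 ± 0.10 in set B, -0.09 ± 0.16 in set C and 0.27 ± 0.19 in set D. They differ in sign and lie within 2 SE of 0. Set B, which was the most precise, had a 95% interval of -0.12 to 0.32. Its signals were 3065, 4312, 3339 and 4099 with no access, 3758, 3193, 3782 and 3254 with short access and 4071, 3855, 3949 and 3826 with long access, so that the no access arrays spanned the whole range. These intervals leave room for changes smaller than those of Syn1 and Rab3a.

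Calls among other genes of the vesicle cycle went both ways against no access, while their summed signal rose. Of 91 such genes listed, 30 are on the array and 19 were tested in the lateral hypothalamus. Between long and no access 4 rose and 3 fell, and the median difference was -0.03. The summed signal of the 30 lay at 14708 to 15556 with no access and 15935 to 16843 with short access. With long access it lay at 17262 to 17836, so the groups did not overlap. The genes that rose were Syt11 (0.98) and Syt3 (0.91), both of the synaptotagmin family, Slc32a1 (0.69), which loads GABA and glycine into vesicles, and Synj1 (0.53), the lipid phosphatase synaptojanin that acts in vesicle uncoating. Those that fell were the SNARE genes Stx8 (-0.59), Stx12 (-0.44) and Stx5 (-0.32), which act on endosomes and the Golgi. Between short and no access Slc32a1 (0.67) and Synj1 (0.52) rose and Sncg (-0.50), a synuclein, fell. Between long and short access Syt11 (1.11), Syt3 (0.75) and the synuclein Sncb (0.64) rose and none fell.

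Markers of cell types were measured in the same comparison of long with no access. Of 6 neuronal markers none rose and 2 fell, the neurofilament genes Nefh (-0.41) and Nefm (-0.37). The summed signal of the 6 lay at 23501 to 25442 with long access and at 25204 to 25694 with no access. Of 7 astrocyte markers 1 rose and 3 fell, and their summed signal lay at 47518 to 59545 with long access and 66841 to 75267 with no access. Of 6 oligodendrocyte markers 2 rose and 3 fell, with sums of 40787 to 46885 and of 48097 to 54446 in the same order of groups. Of 3 microglial and immune markers tested 2 fell, of 2 vessel markers 1 fell, and of 3 choroid plexus markers none was called. No marker of these lists was at the floor on all arrays of either group. With short access the summed neuronal markers lay at 26756 to 27646, above both other groups. Of the 6 neuronal markers 1 rose and none fell between short and no access, and none rose and 1 fell between long and short access. The part of tissue makeup in the rise of the vesicle genes was not tested.

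The same contrasts in the other 5 regions gave few calls. Over 15 contrasts and 9 members there were 3 calls in 135 tests, beside 0.859% of all tests over the same contrasts. No member was called in the nucleus accumbens, the amygdala or the medial prefrontal cortex. Hardly any probe set was called there. Each contrast gave 0 of 738 in the nucleus accumbens and 0 of 680 in the medial prefrontal cortex. The amygdala gave 1 of 732 between long and no access and 0 in its other contrasts. The lack of member calls in these regions is thus no result about the members. The differences of the members there and in the septum and VTA lay between -0.72 and 0.88.

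The 2 calls in the septum were of the same gene. Stx7 had 152, 188 and 186 with no access, 291, 353 and 324 with short access and 214, 191 and 184 with long access. Short access lay above all arrays of both other groups, and long and no access overlapped. Stx7 was 1.85-fold higher with short than with no access (0.88 ± 0.15, adjusted p = 0.0106, limma), where 1.9% of all probe sets were called. It was lower with long than with short access by -0.72 ± 0.15 (adjusted p = 0.0306, limma), where 2.04% were called. The second call was lost with no filter on low signal, with the spike-in covariate and on leaving out any 1 of the 6 long and short access arrays (difference -0.79 to -0.65, adjusted p up to 0.128, limma). Both calls were lost when all 63 arrays shared 1 estimate of spread (adjusted p = 0.317 and 0.894, limma). One of 6 neuronal markers rose between short and no access in the septum, and their sums overlapped, at 21794 to 23973 with short access and 21078 to 22912 with no access. Between long and short access 1 of 6 neuronal markers and 2 of 3 choroid plexus markers fell and none of 7 astrocyte markers was called. The summed choroid plexus markers lay at 10023 to 10180.5 with long access and 11754 to 12149 with short access, and those of astrocytes at 55266 to 58873 with long access and 49144 to 53588 with short access. Their part in the Stx7 difference was not tested.

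Outside the septum Stx7 was not called, and the place of short access among the groups varied. In the nucleus accumbens it had 424, 436, 437 and 437 with no access, 475, 501, 504 and 518 with short access and 429.9, 420.1, 424 and 433 with long access. The short access arrays were above all others there, by 0.20 ± 0.08 over no access (adjusted p = 0.367, limma). In the amygdala 2 of the 4 short access arrays, at 494 and 528, lay above every other amygdala array, and the other two, at 199 and 135, did not. In the VTA its mean was also highest with short access (log2 signal 7.83, 8.08 and 7.99 for no, short and long access). In the lateral hypothalamus (7.80, 7.69 and 7.91 in the same order) and the medial prefrontal cortex (8.48, 8.24 and 8.75) it was lowest with short access. For no member was an access effect in the septum called as different from that in the other 5 regions.

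In the VTA, Snap25 set B had 4896, 5111 and 5069.6 with no access, 5501, 6101 and 6001 with short access and 4946, 4773 and 4869.5 with long access. The short access arrays were the highest 3. Long access was lower than short access by -0.27 ± 0.06 (adjusted p = 0.0296, limma), where 2.63% of all probe sets were called. Set A, from the same transcript, had 5425, 3429 and 3487 with long access and 4586, 3986 and 4058 with short access, which overlap, and a difference of -0.06 ± 0.15 (adjusted p = 0.892, limma). The call of set B was lost on leaving out 7 of the 9 VTA arrays, 1 at a time (difference -0.32 to -0.24, adjusted p up to 0.121, limma), and also under quantile normalization, without an intensity trend, with the spike-in covariate and in 1 fit of all 63 arrays. Of 6 neuronal markers 1 fell between long and short access in the VTA, and their summed signal did not overlap, at 39558 to 40164 with long access and 41154 to 44044 with short access. Their part in the difference of set B was not tested.

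**Figure D2:**
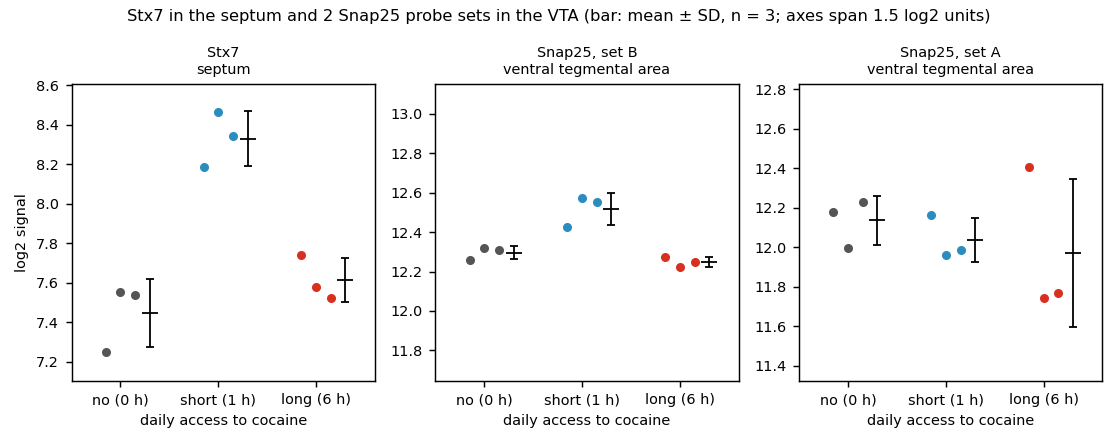
Log2 signal of Stx7 on the 9 septum arrays and of Snap25 sets B and A on the 9 VTA arrays, by daily access to cocaine, with dots for arrays and bars for the mean ± SD (n = 3). Stx7 and Snap25 set B are highest with short access, and set A shows no such separation.

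Several members had groups without overlap in a comparison but no call, and 4 examples follow. Groups were apart for 2 of 9 members in the nucleus accumbens in each comparison with no access. They were apart for 3 of 9 in the septum between long and no access and 2 of 9 in the VTA between long and short access. Of those in the VTA, Snap25 set B was called and Syp was not. The share among all probe sets is not given here, so a separation by itself is no result about the members. Syp in the VTA had 2898, 2997 and 2874 with long access and 2454, 2432 and 2537 with short access, a difference of 0.24 ± 0.06 (adjusted p = 0.0770, limma). Stx1a in the septum had 273, 274 and 309 with long access and 468, 365 and 409 with no access, a difference of -0.53 ± 0.17 (adjusted p = 0.121, limma). Its sign in the septum is thus opposite to that in the lateral hypothalamus, and neither passed. Syp in the nucleus accumbens had 3128, 3019, 2977 and 2888 with no access, 3188, 3375, 3244 and 3453 with short access and 3399.6, 3274, 3322 and 3225 with long access. Both cocaine groups lay above every no access array, by 0.14 ± 0.07 each (adjusted p = 0.318 for long and 0.479 for short access, limma). Rab3a in the nucleus accumbens had 3534, 3411, 3526 and 3582 with long access and 2916, 2591, 3282 and 2925 with no access, a difference of 0.27 ± 0.16 (adjusted p = 0.464, limma).

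Whether the access effect in the lateral hypothalamus differed from that in the mean of the other 5 regions was tested in 1 fit of all 63 arrays. Of 27 member tests 5 were called, all higher. For long against no access, where 12.8% of all probe sets were called, Syn1 differed by 1.13 ± 0.26 (adjusted p = 0.00240, limma), Rab3a by 0.76 ± 0.22 (adjusted p = 0.0177, limma), Stx1a by 0.52 ± 0.16 (adjusted p = 0.0192, limma) and Syp by 0.31 ± 0.09 (adjusted p = 0.0227, limma). Of these only Stx1a was not called within the lateral hypothalamus. Its mean was lower with long than with no access in each of the other 5 regions, most so in the septum (log2 signal 8.15 and 8.69). For long against short access, where 0.117% were called, Syp differed by 0.47 ± 0.09 (adjusted p = 0.00828, limma) and was the only probe set of all 858 that passed. No member was called for short against no access, where 6.88% of all probe sets were. Syp, Rab3a and Stx1a lost the call on leaving out single arrays of the lateral hypothalamus: Syp without long access array 2 or 4, Rab3a without no access array 2, and Stx1a without long access array 2 or 3 or no access array 3 (adjusted p up to 0.0608, 0.0845 and 0.0848, limma). Under quantile normalization the calls of Syp (0.28, adjusted p = 0.0625, limma) and Rab3a (0.61, adjusted p = 0.0763, limma) between long and no access were lost, and with the spike-in covariate that of Rab3a (0.74, adjusted p = 0.0539, limma).

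None of 135 tests of the other 5 regions, each against the mean of the rest, called a member, beside 0.0233% of all tests. In the mean of the 6 regions no member was called in 27 tests, beside 0.738% of all tests.

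**Figure D3:**
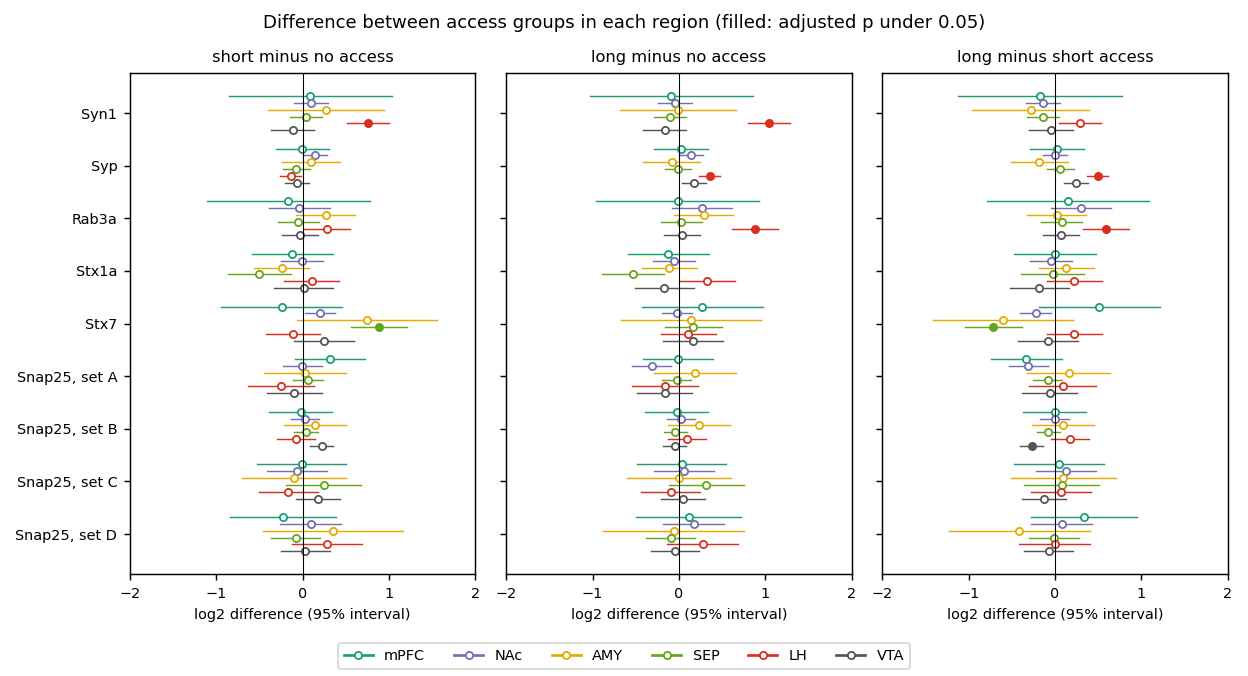
Log2 difference between access groups with its 95% interval for the 9 probe sets in 6 regions, in a panel per contrast, with filled symbols for an adjusted p under 0.05 (limma). Filled symbols are seen for Syn1, Syp and Rab3a in the lateral hypothalamus (LH), for Stx7 in the septum (SEP) and for Snap25 set B in the VTA.

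Over all access groups 40 of 54 member comparisons of a region with the mean of the other 5 were called, 18 of them higher, beside 59.7% of all such tests. In the medial prefrontal cortex 8 of 9 probe sets were higher and none lower, and in the lateral hypothalamus none was higher and 7 were lower. The 4 Snap25 probe sets were among the calls in both regions, so these counts are not of separate genes. The share of all probe sets higher or lower in a single region is not given here. The counts by region are thus no result about the members by themselves. The amygdala had 4 higher and 1 lower, the VTA 3 higher and 5 lower, the septum 2 higher and 4 lower, and the nucleus accumbens 1 higher and 5 lower. With the array number as a block in the fit, the septum lost the calls of Syp, Stx7 and Snap25 sets C and D. The amygdala lost those of Rab3a and Stx7, the lateral hypothalamus that of set C and the VTA that of set A.

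Stx1a had the widest range, 9.10-fold between its highest and lowest region. Its signal, as a geometric mean, was 2599 in the medial prefrontal cortex, 1519 in the amygdala, 387 in the nucleus accumbens, 341 in the lateral hypothalamus, 324 in the septum and 285 in the VTA. The lowest array of the medial prefrontal cortex, at 2049, was above the highest of the amygdala, at 1944, and both regions were clear of the other 4, whose highest array had 478. Against the mean of the other 5 regions, Stx1a was higher by 2.53 ± 0.07 in the medial prefrontal cortex and by 1.60 ± 0.06 in the amygdala (adjusted p = 8.07e-35 and 1.01e-27, limma). Among neighbours in the order, the lateral hypothalamus and septum and the septum and VTA did not differ beyond their spread.

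Syn1 spanned 4.42-fold, with 3614 in the medial prefrontal cortex, 2728 in the amygdala, close values of 1983 in the septum and 1957 in the nucleus accumbens, 1404 in the lateral hypothalamus and 818 in the VTA. The septum and nucleus accumbens did not differ, and the other neighbours did. It differed from its mean over the other 5 regions by 1.13 ± 0.12 in the medial prefrontal cortex and by -1.44 ± 0.12 in the VTA (adjusted p = 4.54e-12 and 1.09e-15, limma). All 9 VTA arrays, at 702 to 936, were below every array of the other regions save 3 of the lateral hypothalamus with no access, at 799 to 879. Without those 4 no access arrays the lateral hypothalamus differed from the other regions' mean by -0.20 (adjusted p = 0.191, limma), against -0.50 (adjusted p = 5.43e-05, limma) with them.

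Syp varied less, 1.69-fold, from 4478 in the medial prefrontal cortex to 2656 in the VTA. The medial prefrontal cortex and amygdala did not differ, and every other pair of neighbours did. Rab3a was the flattest, 1.44-fold between 3177 in the amygdala and 2213 in the VTA, and no neighbours in its order differed. Against the mean of the other 5 regions it was lower in the VTA by -0.41 (adjusted p = 3.87e-04, limma), held under 12 of 13 alternatives. It was higher in the amygdala by 0.21 (adjusted p = 0.0478, limma), held under 5 of 13.

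Stx7 had an order of its own, with 452 in the nucleus accumbens, 360.0 in the medial prefrontal cortex, 249.98 in the VTA, 223 in the lateral hypothalamus, 222 in the septum and 212 in the amygdala. It was higher in the nucleus accumbens by 0.86 ± 0.11 (adjusted p = 4.39e-10, limma). The last 4 regions did not differ as neighbours.

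The 4 Snap25 probe sets shared a high level in the medial prefrontal cortex and parted elsewhere. Set A had 8248 there and its lowest value, 3295, in the lateral hypothalamus. Set B had 6547 in the medial prefrontal cortex and 5232 in the VTA, and 3633 in the septum as its lowest. Set C was as high in the VTA, at 939.9, as in the medial prefrontal cortex, at 923. Set D had 659 in the medial prefrontal cortex and 491 in the VTA, and its lowest value, 199.6, in the nucleus accumbens, 3.30-fold below. In the VTA set A differed from its mean over the other regions by -0.20 ± 0.09 (adjusted p = 0.0468, limma), while sets B, C and D were higher by 0.27 ± 0.06, 0.62 ± 0.11 and 0.46 ± 0.13. The call of set A held under 6 of 13 alternatives and on leaving out 33 of the 63 arrays, 1 at a time, and its difference was 0.026 with the spike-in covariate. Over the 18 group means, which share their arrays' scaling, the correlation between Snap25 probe sets was lowest for A and C (r = 0.47) and highest for B and C (r = 0.90). No single set is given here as the level of the gene.

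**Figure D4:**
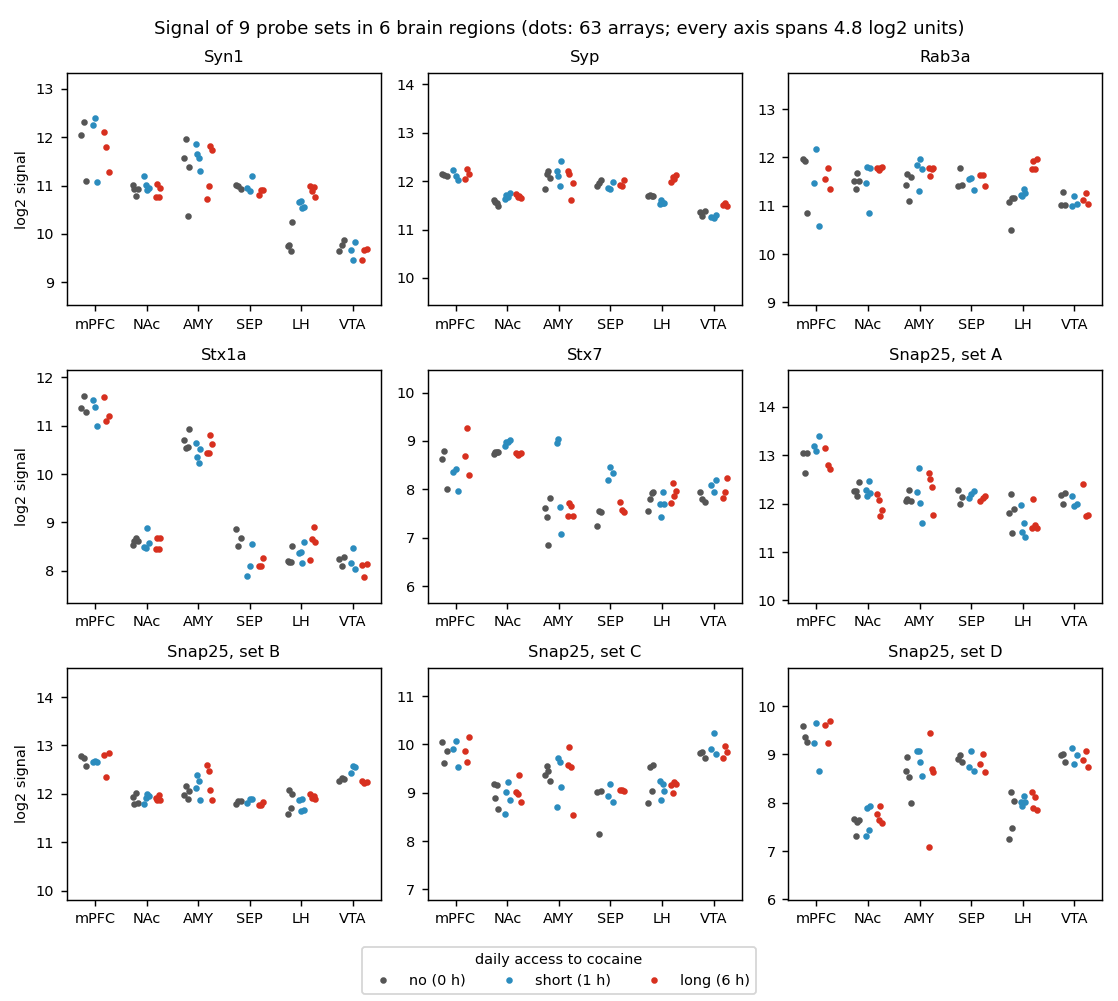
Log2 signal of the 9 probe sets on 63 arrays, by region (mPFC, medial prefrontal cortex; NAc, nucleus accumbens; AMY, amygdala; SEP, septum; LH, lateral hypothalamus; VTA) and by daily access to cocaine, with a dot for each array. Stx1a forms 2 levels, the mPFC and amygdala against the rest, and Syn1 is lowest in the VTA.

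Within the medial prefrontal cortex the arrays numbered 3 in the labels stood below the others in all 3 access groups for some members. Syn1 had 4240.4, 5064 and 2195 on no access arrays 1, 2 and 3, 4909, 5378 and 2149 on those of short access and 4401, 3584 and 2491 on those of long access. Array 3 differed from the mean of the other two by -1.08, -1.26 and -0.67 (log2) in these groups. For Rab3a these differences were -1.09, -1.24 and -0.31 and for Stx7 -0.71, -0.43 and -0.69, while those of Syp lay between -0.16 and -0.004. Whether a number marks a shared dissection or day is not given in the sources used here. Without these 3 arrays, an alternative chosen after seeing the data, Rab3a in the medial prefrontal cortex was above its mean over the other regions by 0.37 (adjusted p = 4.86e-04, limma) and lower in the lateral hypothalamus by -0.17 (adjusted p = 0.0314, limma), neither of which was called with them, and in the amygdala it was no longer called (0.15, adjusted p = 0.0545, limma).

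**Figure D5:**
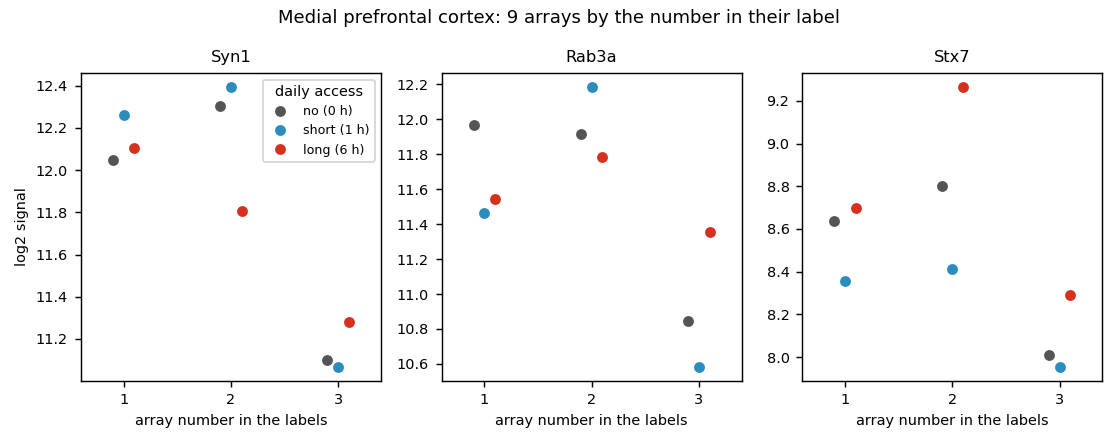
Log2 signal of Syn1, Rab3a and Stx7 on the 9 medial prefrontal cortex arrays by the array number in the labels, with colours for daily access to cocaine. The arrays numbered 3 are the lowest of their access group for all 3 genes.

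The genes most like each member were named by Pearson's r over the 18 group means of region and access, a description of points that share arrays and scaling. Syn1 was most like Ctxn1 (r = 0.93), Svop (0.92) and Nr4a1 (0.92), against a median r of -0.12 over the 775 probe sets compared. Syp was most like Sstr2 (0.93), Gabra5 (0.88) and Nptxr (0.87), and Stx1a like Kcnh3 (0.94), Camkk1 (0.93) and Kcnk1 (0.92). Rab3a was most like Bmyc (0.81), Rara (0.79) and Nlgn3 (0.78), and Stx7 like Chrm4 (0.78), Itpr1 (0.78) and Kcna4 (0.72). Snap25 set A was most like Atp2b2 (0.93) and the 2 probe sets of Adra1d (0.87 and 0.85). Among the members, Syn1 and Syp were the pair of different genes with the highest r (0.87), while Stx7 had r of at most 0.41 with any other member.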

How the data were processed

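Gene expression was measured in 63 samples of 6 rat brain regions on Affymetrix rat neurobiology arrays. The deposited values are linear intensity signals from MAS5, per the submitters' processing notes. Its version is not given in the sources used here. The trimmed mean of the deposited intensity was 250.8 to 251.3 on every array. There are no counts for arrays, and their number limits the precision.

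The signals of an array were multiplied so that the 2% trimmed mean of its 1263 non-control probe sets was 500 (factors 2.05 to 2.16), values under 32 were set to 32, and log2 was taken. At the floor were 17.3% to 25.1% of an array's probe sets. Probe sets with a mean log2 signal of at least that of 100 in the region (in at least 1 region for fits of all regions, 858 probe sets) were tested. Per region, limma 3.58.1 (R 4.3.3) was fitted to the 3 access groups, and 18 groups for comparisons between regions, with an intensity trend and Benjamini-Hochberg adjustment at 0.05. The fits were checked on simulated data. Alternatives were the deposited scale, quantile normalization, no floor, other filters, array weights, no trend, leaving out cross-hybridising probe sets, a replicate block, a spike-in covariate, 1 fit of all arrays, wider adjustment, the 2 groups compared, and each array left out. Array numbers were not taken as pairs, since the labels do not say that a number marks a shared rat. In no region did every same-numbered pair correlate above 0.1. Most arrays nevertheless matched best with their own number in the septum (9 of 9), the VTA (8 of 9), the lateral hypothalamus (7 of 12) and the medial prefrontal cortex (6 of 9). Named genes were the members, the 3 probe sets most like each, and called genes of the vesicle list. The members, lists and tests were chosen with earlier results of these data known.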

Additional observations from a re-analysis of the deposited data

Results flagged for a closer look

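Of 81 combinations of a member probe set with a group of 4 arrays, 6 held a single array far from the other 3, against about 1 in 20 by chance. The combinations share arrays and 6 of 81 is not far from that rate, so the number is no result by itself. Rab3a was at 1445 on no access array 2 of the lateral hypothalamus, the lowest of its group, and at 3133 on long access array 2 of the amygdala, again the lowest. Stx1a was at 366 (365.8) on no access array 4 of the lateral hypothalamus, the highest of its group. Stx7 was at 424 (424.5) on no access array 1 of the nucleus accumbens, where the other 3 had 436 to 437. Snap25 set A was at 4349 on long access array 2 of the lateral hypothalamus, and set D at 158 (157.8) on no access array 2 of the nucleus accumbens.

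The access effect in the lateral hypothalamus differed from that in the mean of the other 5 regions, by the test of the difference (limma), for Syn1 (1.13), Rab3a (0.76), Stx1a (0.52) and Syp (0.31) between long and no access and for Syp (0.47) between long and short access. Stx1a was not called within the lateral hypothalamus itself.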

How the results depend on the processing

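In the lateral hypothalamus the count of called members for long against no access stayed at 2 to 3 under all alternatives and at 3 to 4 on leaving out 1 array. For short against no access it was 2 with no filter, against 1, and for long against short access it was 1 in 1 fit of all 63 arrays, against 2. Calls in the other 5 regions numbered 5 with no filter, 1 with the spike-in covariate and 0 in 1 fit of all arrays, against 3. In the mean of 6 regions 2 members were called with array weights, against 0, and 0 to 1 on leaving out 1 array. For the lateral hypothalamus minus the other regions there were 3 calls under quantile normalization, against 5, and 3 to 6 on leaving out 1 array. Region calls numbered 19 without cross-hybridising probe sets, which drops 4 members, and 7 when at least 2-fold was also asked, against 40. The causes of these changes were not tested, except that members drop out by construction. Snap25 set A in the VTA against the other regions turned from -0.20 (adjusted p = 0.0468, limma) to 0.026 (adjusted p = 0.879, limma) with the spike-in covariate.

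With a replicate block on the array numbers the counts were 3, 1 and 2 in the lateral hypothalamus, 4 in the other regions, 0 in the mean, 6 in the lateral hypothalamus minus the others and 32 for regions. Same-numbered arrays had a median correlation of 0.58 in the medial prefrontal cortex, against -0.47 for arrays of other numbers, but a lowest of -0.001. In the VTA 8 of 9 arrays were best matched by their own number. In the septum the correlation of same-numbered arrays ran from 0.064 to 0.148, and 9 of 9 were best matched by their own number. For the lateral hypothalamus it ran from 0.029 to 0.337, and 7 of 12 were best matched so. Its median there was 0.15, against -0.08 for arrays of other numbers. These are hints from the data and not the design.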
